A study of Rattus norvegicus with 2 samples.

Results

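Dividing mature T cells are the T lymphocytes of the infarcted rat heart that were caught in the cell cycle without markers of thymic precursors, regulatory T cells or interleukin-17-type T cells. They were 504 of the 29949 cell barcodes of the series and 504 of its 5844 mature T cells, with 349 in library 2 and 155 in library 1. A member had at least 200 genes, at most 20% mitochondrial unique molecular identifiers (UMIs, each standing for 1 captured transcript), and at least 1 UMI of Cd3e, a chain of the T cell receptor complex. It also had at least 3 UMIs in sum of 6 division genes (Mki67, Top2a, Birc5, Cdk1, Ccna2 and Ube2c). Cells with a UMI of Rag1, Dntt or Ptcra (developing thymocytes), Foxp3 (regulatory T cells), Il17a or Scart1 (interleukin-17-type cells), Ncr1 (natural killer cells) or Cd79b (B cells) were left out, as were cells with more than 2 UMIs of the complement genes C1qa, C1qb and C1qc, which mark macrophages.

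The series sorted living CD45+ leukocytes from the left ventricle of wild-type (wt) rats, infarct and border zone together, 7 days after surgery, and profiled them with the 10x Genomics 3' platform. Per the labels, the groups are MI+PUR-hAESC, infarcted hearts that carried a polyurethane patch seeded with human amniotic epithelial stem cells, and MI, infarcted hearts alone, with 1 sample each, and all rats had a myocardial infarction. The number of animals behind a sample, their age, sex and strain are not stated in the labels. The series asked what the patch does to cardiac immune cells, but no source used here ties library 2 or library 1 (barcode suffixes of 1 pooled matrix) to a group, so no value below is an effect of the patch. With 1 library on each side there is no replicate and no test: intervals are exact 95% intervals for counting error only, and cells of 1 library are not replicates.

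A T cell that recognises its antigen leaves a resting state, grows, copies its DNA in S phase and divides in mitosis, and its daughters may become effector cells that secrete cytokines and kill target cells. Resting naive and central memory T cells hold factors such as Lef1 and Tcf7, which are known to decline on activation. In the heart after infarction, T cells enter the injured muscle in the days after the myeloid cells, and both harmful and healing roles are known for them in rodents.

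The libraries were of similar size, with 82802439 UMIs over 15666 barcodes in library 2 and 72506643 over 14283 in library 1. They shared 71 barcodes; none was shared between members of library 2 and members of library 1, and 2 members had a barcode that also occurs in the other library. Members were deep cells, with a median of 8764 UMIs in library 2 and 10463 in library 1, against 4727 and 4514.5 UMIs in the non-dividing mature T cells (0 UMIs of the division genes, 2730 and 1912 cells). Because deeper cells reach 3 division UMIs more easily, every cell was also thinned at random to 2000 UMIs, and cells with 2 or more division UMIs at that depth were compared with cells that had 0. In full, these dividing cells again had more UMIs, with a median of 8392 in library 2 and 9603.5 in library 1, against 4952.5 and 4703 in cells with no division UMI. At the same 2000 UMIs they also showed more genes, a median of 1050 in library 2 and 1060.5 in library 1, against 952 and 979. Median mitochondrial shares were 2.69% and 3.02% in members, against 2.81% and 3.39% in non-dividing cells of library 2 and library 1. A doublet caller marked 11 members (3.15%) in library 2 and 10 (6.45%) in library 1, against 139 (5.09%) and 123 (6.43%) of the non-dividing cells.

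The limits on natural killer, B cell and macrophage transcripts left out more dividing than non-dividing T cells. They took 122 of 471 dividing cells (25.9%) in library 2 and 25 of 180 (13.9%) in library 1, against 519 of 3249 (15.97%) and 250 of 2162 (11.6%) non-dividing cells. Dividing cells were also the deeper ones (above), and the part of depth in this difference was not tested.

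Of the mature T cells, 349 of 3485 were dividing in library 2, or 10.0% (95% interval 9.04 to 11.1%), and 155 of 2359 in library 1, or 6.57% (5.604 to 7.65%). With each cell thinned to 2000 UMIs and 2 division UMIs required, the shares were 6.80% (225 of 3307 cells, 5.97 to 7.72%) in library 2 and 5.05% (116 of 2295 cells, 4.19 to 6.03%) in library 1, and the intervals overlapped slightly. At 3000 UMIs they were 9.13% (281 of 3077 cells, 8.14 to 10.2%) and 6.03% (129 of 2138 cells, 5.06 to 7.13%), and the intervals lay apart. Cells that should hardly divide set the background of this measure. Neutrophils stood at 0.273% in library 2 and 0.514% in library 1, and B cells at 0.507% and 0.204%, at full median depths of 3072.5 and 2298 UMIs for neutrophils and 2980 and 3079 UMIs for B cells.

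The levels of the 6 division genes are given as a description only, since the members were chosen by these genes. Mki67, the proliferation antigen that coats mitotic chromosomes, stood at 1051 CPM (UMIs of a gene per 1000000 UMIs of the summed cells) in members of library 2 and 1135 CPM in those of library 1, and was detected in 340 of 349 and 152 of 155 cells. Top2a, the topoisomerase that untangles replicated DNA, stood at 354 and 435 CPM, and Ube2c, the ubiquitin-conjugating enzyme of the anaphase-promoting complex, at 195 and 214 CPM. The remaining levels in library 2 and library 1 were 123 and 130 CPM for Birc5 (survivin, a chromosomal passenger), 98.0 and 133 CPM for Cdk1 (the mitotic kinase), and 56.1 and 72.8 CPM for its cyclin partner Ccna2. All 6 are at 0 in non-dividing cells because the rule demands it. A member held a median of 8 division UMIs in library 2 and 14 in library 1, and at most 109 and 108. The rule sets the lowest value at 3, and the median depth was unequal, at 8764 UMIs in library 2 and 10463 in library 1.

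The limit of 3 division UMIs cuts a continuous range. Stmn1, which encodes the microtubule-destabilising protein stathmin and was not part of the rule, had 586 CPM in the 63 cells of library 2 just inside it (3 UMIs) and 327 CPM in the 13 cells of library 1, against 348 CPM in 110 cells and 190 CPM in 56 cells just outside it (2 UMIs). In cells with 20 or more division UMIs Stmn1 reached 2085 CPM in library 2 and 2305 CPM in library 1.

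Promoters of 4 of the 6 division genes were among the RefSeq promoters of build GRCr8 used here, each 250 bases before to 50 after the gene's start, and are shown because the cell cycle genes of the rule carry known control motifs there. Capitals mark the cell cycle homology region (TTTGAA or TTCGAA, bound in human and mouse by the complex that silences mitotic genes in resting cells), CCAAT (bound by NF-Y) and the E2F site (TTCCCGC or else TTCGCGC, or either of the forms TTGCCGC and also TTGGCGC), on either strand. They are Mki67 at chr1:199952544-199952843 on the minus strand, Top2a at chr10:84473044-84473343 on the minus strand, Birc5 at chr10:103571896-103572195 on the plus strand and Cdk1 at chr20:19265043-19265342 on the plus strand.
Mki67: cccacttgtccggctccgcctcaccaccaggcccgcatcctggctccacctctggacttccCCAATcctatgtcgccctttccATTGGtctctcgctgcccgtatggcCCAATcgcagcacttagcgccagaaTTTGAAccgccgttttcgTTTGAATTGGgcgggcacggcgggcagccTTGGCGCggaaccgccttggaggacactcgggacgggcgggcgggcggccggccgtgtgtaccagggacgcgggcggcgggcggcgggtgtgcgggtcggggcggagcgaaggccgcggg
Top2a: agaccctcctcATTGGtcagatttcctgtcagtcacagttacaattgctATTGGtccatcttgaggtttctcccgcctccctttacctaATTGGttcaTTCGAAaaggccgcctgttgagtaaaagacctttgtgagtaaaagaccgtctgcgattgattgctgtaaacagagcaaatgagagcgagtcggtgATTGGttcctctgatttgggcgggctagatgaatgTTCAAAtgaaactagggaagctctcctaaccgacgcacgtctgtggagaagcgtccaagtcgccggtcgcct
Birc5: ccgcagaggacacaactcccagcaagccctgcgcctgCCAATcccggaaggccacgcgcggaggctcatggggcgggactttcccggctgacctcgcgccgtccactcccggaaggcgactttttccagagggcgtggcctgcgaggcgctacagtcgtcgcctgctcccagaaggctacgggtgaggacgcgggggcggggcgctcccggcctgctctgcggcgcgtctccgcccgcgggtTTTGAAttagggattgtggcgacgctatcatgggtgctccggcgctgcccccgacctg
Cdk1: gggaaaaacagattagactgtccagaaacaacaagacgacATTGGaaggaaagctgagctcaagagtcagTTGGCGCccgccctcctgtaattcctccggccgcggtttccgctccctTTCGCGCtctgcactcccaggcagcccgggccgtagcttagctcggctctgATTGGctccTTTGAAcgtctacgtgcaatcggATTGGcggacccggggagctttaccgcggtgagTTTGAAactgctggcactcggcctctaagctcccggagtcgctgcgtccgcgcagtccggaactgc

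All 4 windows hold a cell cycle homology region and a CCAAT, against 19.7% and 37.5% of all 33469 promoters of the table. In Mki67 a TTTGAA and an ATTGG, the reverse form of CCAAT, overlap by 1 base and read as 1 run of capitals. E2F sites were found in Mki67 and Cdk1, against 9.52% of all promoters. The motifs divided by list in a count added after the data were seen. The homology region was in 27 of 37 promoters of the mitosis list (73.0%) and in 4 of 27 of the DNA replication list (14.8%), while E2F sites were in 21 of 27 of the replication list (77.8%) and 6 of 37 of the mitosis list (16.2%). A match is a description of letters and shows no binding.

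Outside the rule, the largest differences between members and non-dividing cells were in the machinery of chromosome division. Of 5483 genes with at least 20 CPM in either sum of both libraries, 246 (4.49%) were 2-fold or more higher in members in both libraries and 38 (0.693%) were 2-fold or more lower, on a scale of log2(CPM + 10), which understates the ratio where 1 side is low. Cells were picked by division genes, so these values describe the members and test nothing. The median over all these genes was 0.10 in library 2 and 0.05 in library 1. Scaling with TMM factors would move every ratio by -0.16 in library 2 and -0.06 in library 1, so medians of lists nearer to 0 than this are given no direction.

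**Figure D1:**
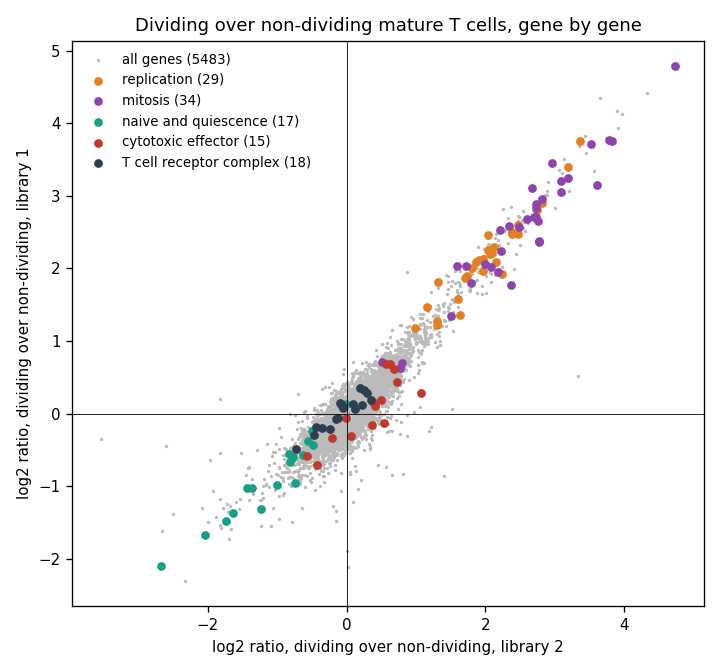
Each point is a gene, with its log2 ratio of members over non-dividing mature T cells in library 2 on the x axis and in library 1 on the y axis, on log2(CPM + 10). Replication and mitosis genes lie at the upper right in both libraries, with Cenpf at 4.74 and 4.78, and genes of naive and resting cells at the lower left, with Lef1 at -2.04 and -1.67.

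Genes of the mitotic chromosome and spindle led the list. Cenpf, a protein of the outer kinetochore, stood at 298 CPM in members of library 2 and 297 CPM in those of library 1, against 1.54 and 1.14 CPM in non-dividing cells (log2 ratios 4.74 and 4.78). Tpx2, which builds spindle microtubules around chromosomes, stood at 158 and 141 CPM, against 1.89 and 1.14 CPM. Cenpe, the kinesin that carries chromosomes to the spindle equator, had 156 and 148 CPM, against 1.965 and 1.62 CPM. In every one of these genes both libraries of members lay far above both of non-dividing cells. The same held for Spc24 (184 and 182 CPM, against 2.88 and 2.57 CPM), part of the Ndc80 complex that grips microtubules, for Nusap1 (112 and 128 CPM, against 0.561 and 0.476 CPM), a spindle protein, and for the centromere gene Cenpw (114 and 135 CPM, against 1.26 and 1.999 CPM). Of 34 tested genes of the mitosis list, 31 were past 2-fold in both libraries, with a list median log2 ratio of 2.69 in library 2 and 2.62 in library 1. The exceptions were Aurka, with log2 ratios of 0.77 and 0.63, Cks2, with 0.51 and 0.71, and Tacc3, with 0.80 and 0.70. Cks2 was also well expressed outside division, at 257 and 279 CPM in members, against 178 and 167 CPM in non-dividing cells.

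Genes of DNA replication were higher as a block. Rrm2, the regulated subunit of ribonucleotide reductase that makes DNA precursors, had 129 CPM in members of library 2 and 161 CPM in those of library 1, against 3.44 and 2.67 CPM in non-dividing cells. Pclaf, a partner of the replication clamp, had 106 and 141 CPM, against 0.772 and 0.666 CPM. Uhrf1, which guides DNA methylation onto new strands, had 115 and 117 CPM, against 3.72 and 2.09 CPM. Of 29 tested genes of the replication list, 28 were past 2-fold, with list medians of 2.03 and 2.12 in library 2 and library 1. The exception was Pcna, the clamp itself, at 380 and 376 CPM, against 186 and 160 CPM (log2 ratios 0.99 and 1.18), a gene that also serves DNA repair. The 6 subunits of the replicative helicase, Mcm2 to Mcm7, had log2 ratios between 1.59 (Mcm7, library 1) and 2.50 (Mcm5, library 1). Genes of repair by recombination followed, 8 of 10 past 2-fold with medians of 1.45 and 1.4985, among them Topbp1, a scaffold of replication and of the DNA damage checkpoint, with log2 ratios of 1.32 and 1.42.

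Building blocks of chromatin and the spindle made up a visible part of the members' transcripts. Hmgb2, a DNA-bending protein, stood at 4012 CPM in members of library 2 and 3663 CPM in those of library 1, against 647 and 584 CPM. Stmn1 stood at 1482 and 1658 CPM, against 108 and 72.2 CPM (log2 ratios 3.66 and 4.34), and at 2000 UMIs it was detected in 77.1% and 81.3% of members, against 16.8% and 12.3% of non-dividing cells and 16.1% and 14.7% of B cells. The linker histone gene Hist1h1b had 762 and 788 CPM, against 39.4 and 35.6 CPM. Hist1h2an, of a histone family whose near-identical copies may share reads, had 470 and 451 CPM, against 22.3 and 15.6 CPM. In this list 20 of 21 tested genes were past 2-fold, the exception being Hmgb1 with log2 ratios of 0.95 and 1.10.

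Members varied widely in their UMIs of replication and of mitosis genes. Summed over the replication list, a member held a median of 25 UMIs in library 2 (range 0 to 159) and 38 in library 1 (range 1 to 124), against a median of 3 UMIs in non-dividing cells of either library. Summed over the mitosis list, the medians were 16 (0 to 203) and 23 (0 to 193), against 1 UMI. Replication UMIs outnumbered mitosis UMIs in 193 members of library 2 and 95 of library 1, mitosis UMIs outnumbered replication UMIs in 148 and 55, and they were equal in 8 and 5. No phase was called from these counts, since 98 and 48 members lay within 2-fold of equality.

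**Figure D2:**
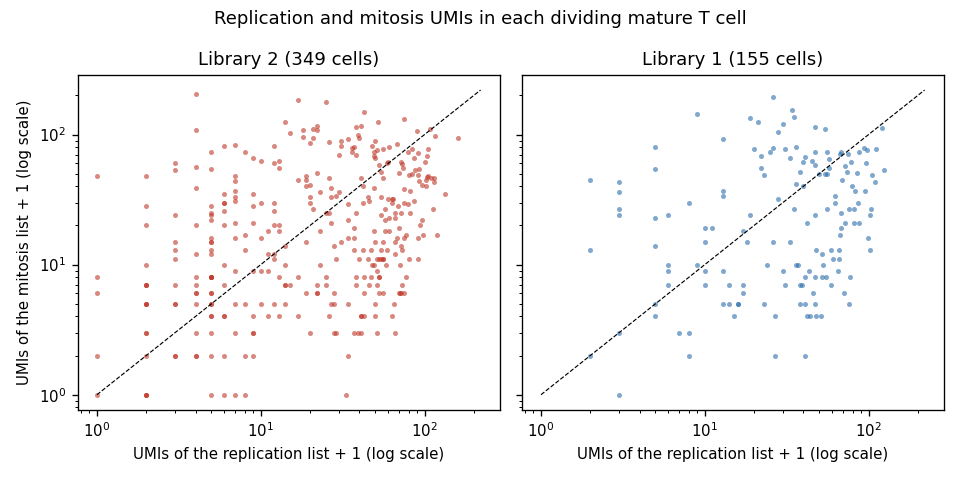
Each point is a member, with its UMIs of the replication list on the x axis and of the mitosis list on the y axis, both plus 1 on log scales, and the dashed line marks equal numbers. Cells fill both sides of the line in library 2 (left, 193 below it and 148 above) and library 1 (right, 95 below and 55 above), with many cells near it.

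The control of entry into the cycle was more mixed. The list of G1 cyclins, E2F factors and inhibitors had 7 of 19 tested genes past 2-fold, with medians of 0.61 and 0.85. Cdkn3, a phosphatase of cyclin-dependent kinases, was the highest of them at 263 CPM in members of library 2 and 266 CPM in those of library 1, against 3.58 and 2.95 CPM (log2 ratios 4.33 and 4.41). The cyclin E genes that open S phase were also past 2-fold, Ccne1 with log2 ratios of 1.77 and 1.92 and Ccne2 with 1.31 and 1.35. So were Mybl2 (2.20 and 2.33), the factor that switches on mitotic genes, Cks1b (2.26 and 2.82), Rbl1 (1.52 and 1.82) and Cdkn2c (1.47 and 1.90). The D cyclins did not follow: Ccnd2 stood at 81.5 and 85.8 CPM, against 109.6 and 102 CPM, and Ccnd3 at 171 and 177 CPM, against 121 and 129 CPM. Cdkn1b, the inhibitor p27 that holds T cells in rest, was lower at 215 and 256 CPM, against 358 and 374 CPM, short of 2-fold (log2 ratios -0.71 and -0.53).

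Genes of naive and resting T cells were the other pole. Lef1 stood at 31.5 CPM in members of library 2 and 32.7 CPM in those of library 1, against 161 and 126 CPM in non-dividing cells (log2 ratios -2.04 and -1.67), and its partner Tcf7 had 28.0 and 28.2 CPM, against 109 and 88.2 CPM. S1pr1, the receptor with which T cells leave tissue towards blood and lymph, had 73.4 and 72.8 CPM, against 215 and 159 CPM. In each of these 3 genes both libraries of members lay below both of non-dividing cells. Of 17 tested genes of this list 7 were 2-fold or more lower in both libraries (background 0.693%) and none higher, among them also Satb1, a chromatin organiser (log2 ratios -1.73 and -1.48), Bach2, which restrains effector genes (-1.23 and -1.31), and Pik3ip1, an inhibitor of PI3 kinase (-1.37 and -1.03). Btg1, which in mouse keeps T cells resting, just missed at -1.01 and -0.97, with 609 and 619.7 CPM, against 1233 and 1228 CPM. The list median was -0.83 in library 2 and -0.95 in library 1.

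Other genes at the low end were Rab3ip, an exchange factor for the membrane traffic GTPase Rab8, at 20.5 CPM in members of library 2 and 14.1 CPM in those of library 1, against 143 and 109 CPM (log2 ratios -2.32 and -2.30). Scml4, a polycomb family gene, had log2 ratios of -1.83 and -1.53, Rflnb -1.70 and -1.73, Tcp11l2 -1.67 and -1.59, and Art2b, a T cell surface ADP-ribosyltransferase of rats, -1.81 and -1.58. Ifit3, an interferon-induced gene, had 32.4 and 35.0 CPM, against 135 and 101 CPM, with 41.1% and 59.7% of its UMIs in members in 3 cells. The list of the type I interferon response did not follow it as a whole. Of its 20 tested genes 1 was 2-fold or more lower in both libraries (background 0.693%) and none higher. In both libraries 7 were above 0 and 9 below, with list medians of 0.01 in library 2 and -0.16 in library 1.

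Seen from the other side, the share of dividing cells was low among T cells in which such a transcript was found. At 2000 UMIs, 9 of 667 Lef1-positive mature T cells of library 2 (1.35%, 0.619 to 2.55%) and 5 of 363 of library 1 (1.38%, 0.449 to 3.18%) were dividing, against 8.18% and 5.75% of cells without a Lef1 UMI. For Tcf7 the shares were 1.13% and 1.22%, against 7.89% and 5.69%. With S1pr1 they were 3.61% and 2.54%, against 7.92% and 5.71%. The intervals of cells with and without these transcripts lay apart in both libraries for all 3 genes. Lef1 and Tcf7 UMIs were found in 2.03% and 2.04%, and in 0.203% and 0.204%, of B cells of library 2 and library 1, so stray UMIs were few. S1pr1 is transcribed in other leukocytes too.

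**Figure D3:**
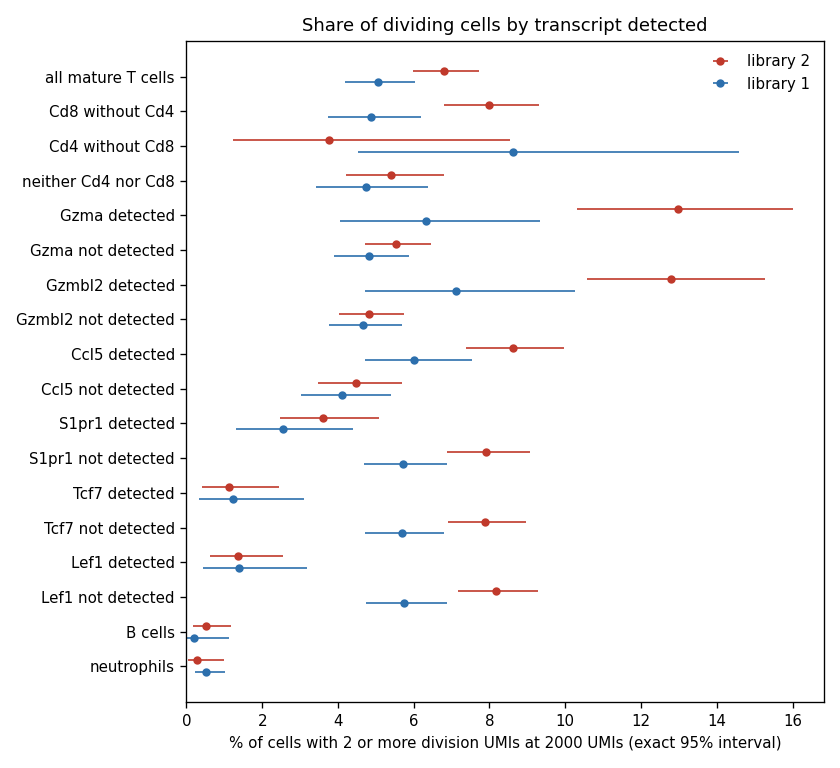
The x axis gives the percentage of cells with 2 or more division UMIs after thinning to 2000 UMIs, with exact 95% intervals, for mature T cells split by a transcript and for B cells and neutrophils. Library 2 is the upper point of each pair and library 1 the lower; cells with Lef1 or Tcf7 sit between 1.13% and 1.38%, and Gzma-positive cells of library 2 at 13.0%.

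Most members carried CD8. At 2000 UMIs, 229 of 336 members of library 2 (68.2%, 62.9 to 73.1%) and 88 of 155 of library 1 (56.8%, 48.6 to 64.7%) had a Cd8a or Cd8b UMI and no Cd4, against 54.0% and 53.4% of non-dividing cells; unthinned, members stood at 74.8% and 56.8%, against 56.7% and 56.6%. Cd4 without Cd8 was found in 3.27% and 9.03% of members, against 111 of 2583 (4.30%) and 111 of 1850 non-dividing cells, and neither in 27.7% and 33.5%, against 40.8% and 39.9%. In B cells 3.24% and 2.45% had a CD8 UMI. By level, Cd8a stood at 793 CPM in members of library 2 and 573 CPM in those of library 1, against 680 and 581 CPM, and Cd4 at 18.5 and 43.5 CPM, against 32.5 and 44.8 CPM. The transcript is sparse, so a cell without a Cd4 UMI is not shown to lack it.

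The T cell receptor complex did not separate members from other mature T cells. Cd3g stood at 970.2 CPM in members of library 2 and 1079 CPM in those of library 1, against 1148 and 1254 CPM, Cd3d at 772 and 899.7 CPM, against 856 and 944 CPM, and the kinase Lck at 391.7 and 466 CPM, against 409 and 428 CPM. None of 18 tested genes of this list was past 2-fold in either direction, with medians of -0.06 and 0.09. Cd27, a costimulatory receptor, was the lowest of them in both libraries with log2 ratios of -0.72 and -0.49. The thymocyte gene Rag2, which the rule did not use, had 0 UMIs in members of both libraries. The 9 tested thymocyte markers had medians of -0.06 and -0.04. Cells with Rag1, Dntt or Ptcra had been left out of members and non-dividing cells alike, so these values do not test the label. Mns1 was the 1 thymocyte marker past 2-fold higher, with log2 ratios of 1.33 and 1.12. Another 1 of the 9 was past 2-fold lower, and in both libraries 3 were above 0 and 5 below.

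Effector genes were high in members and in non-dividing cells alike, with a mixed pattern within the list. Gzma, a granzyme of killer cells, stood at 455 CPM in members of library 2 and 231 CPM in those of library 1, against 210 and 189 CPM (log2 ratios 1.08 and 0.28). Gzmbl2, a granzyme gene outside the list, of a family whose copies may share reads, was at 537 and 201 CPM, against 248 and 119 CPM (1.09 and 0.71). Nkg7, a protein of cytotoxic granules, was at 1267 and 1076 CPM, against 763 and 791 CPM, and the chemokine Ccl4 at 5009 and 3961 CPM, against 3122 and 2578 CPM. These 4 were higher in members in both libraries. For Gzma in library 1 little of this was left without the 3 highest cells of each sum, at 181 CPM in members, against 175 CPM. The gap was wider in library 2 for Gzma, Gzmbl2 and Nkg7, and similar in both for Ccl4 (log2 ratios 0.68 and 0.62). Ccl5, the chemokine with the highest level of the list, went the other way at 6647 and 4890 CPM, against 9826 and 7338 CPM (-0.56 and -0.58), although 72.0% and 60.6% of members had a Ccl5 UMI at 2000 UMIs, against 51.3% and 46.9% of non-dividing cells and 23.4% and 9.18% of B cells, so no order is read from that share. Gzmm was lower too, at 621 and 449 CPM, against 839 and 737 CPM. Ifng stood at 124 and 100.5 CPM, against 77.0 and 58.6 CPM, and its regulator Tbx21 at 69.1 and 57.0 CPM, against 43.6 and 31.8 CPM. None of 15 tested genes passed 2-fold in both libraries, and list medians were 0.41 and 0.10.

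Among mature T cells of library 2, 73 of 563 with a Gzma UMI were dividing at 2000 UMIs (13.0%, 10.3 to 16.03%), against 5.54% (4.71 to 6.46%) of those without. In library 1 it was 23 of 364 (6.32%, 4.05 to 9.33%), against 4.82% (3.90 to 5.87%), and these intervals overlapped. Gzmbl2 gave 12.8%, against 4.83%, in library 2 and 7.12%, against 4.66%, in library 1. The intervals for Gzmbl2 lay apart in library 2 and overlapped in library 1. In cells without a Gzmbl2 UMI the libraries stood together, at 4.83% (4.02 to 5.74%) in library 2 and 4.66% (3.77 to 5.70%) in library 1. Gzma UMIs were found in 1.01% and 0.612% of B cells.

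Receptors for help, homing and restraint varied gene by gene. Itgb1, the beta 1 integrin chain, stood at 401 CPM in members of library 2 and 462 CPM in those of library 1, against 244 and 304 CPM. Tigit, an inhibitory receptor, had 51.2 and 85.2 CPM, against 28.8 and 48.7 CPM, and Lag3, another, 154 and 225 CPM, against 145 and 198 CPM. Pdcd1 had 0 UMIs in members and non-dividing cells of both libraries, and 0 of 336 and 0 of 155 members at 2000 UMIs allow a share of cells with a UMI of up to 0.893% and 1.94%. No B cell or neutrophil had a Pdcd1 UMI either, and whether the matrix captures this gene was not tested. Il2rb, the beta chain of the interleukin-2 receptor, stood at 178 and 169.9 CPM, against 130.1 and 146 CPM, and Il2ra at 46.3 and 52.5 CPM, against 57.1 and 48.2 CPM. None of 8 tested checkpoint, 19 activation or 13 homing genes was past 2-fold in both libraries.

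**Figure D4:**
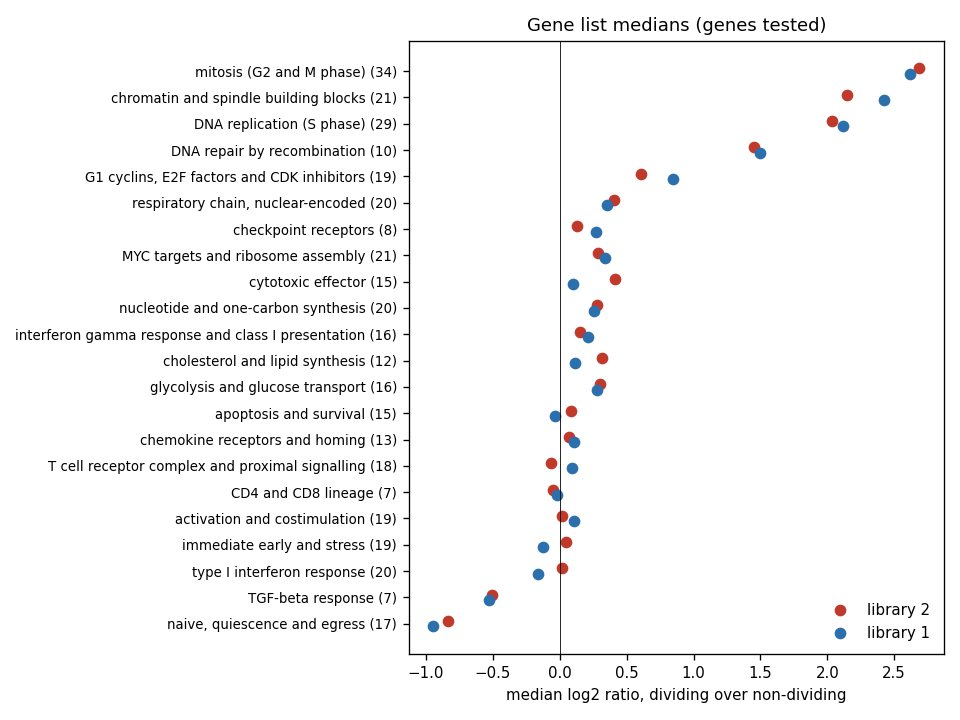
Points give the median log2 ratio of members over non-dividing cells for each gene list with 5 or more tested genes, marker lists of other cell types aside, with the number tested in brackets. The 4 lists of mitosis, chromatin, replication and repair stand at 1.45 or more in both libraries, the naive list at -0.83 and -0.95, and the TGF-beta response at -0.51 and -0.53.

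Of the metabolic lists, the respiratory chain was the most uniform. All 20 tested nuclear genes of the respiratory chain were above 0 in both libraries (49.4% of all tested genes were), with medians of 0.41 in library 2 and 0.35 in library 1 and none past 2-fold. Cox5b, of complex IV, stood at 851 and 834 CPM, against 536 and 573 CPM, and Uqcrq, of complex III, at 385 and 346 CPM, against 219 CPM in non-dividing cells of either library. Of the glycolysis list 10 of 16 were above 0 in both libraries, none past 2-fold in both, and 3 below. Ldha, lactate dehydrogenase, stood at 979 and 996 CPM, against 682 and 746 CPM, while the lactate exporter gene Slc16a3 had log2 ratios of -1.07 and -0.53 and the hexokinase gene Hk2 of -0.33 and -0.69. Phgdh, the entry enzyme of serine synthesis, had 109 and 83.0 CPM, against 47.3 and 42.0 CPM, and Paics, of purine synthesis, 84.4 and 94.3 CPM, against 46.8 and 50.3 CPM. In the nucleotide list 14 of 20 were above 0 in both libraries and 2 below, and 1 was past 2-fold, Tmpo, which encodes a nuclear lamina protein and no synthesis enzyme (log2 ratios 1.65 and 1.67). Of 21 genes of MYC targets and ribosome assembly 16 were above 0 in both libraries, 2 below and none past 2-fold, with Pa2g4 at 149 and 133 CPM, against 75.5 and 69.9 CPM, while Npm1, the most abundant, stood at 1638 and 1544 CPM, against 1832 and 1670.5 CPM.

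In the list of the TGF-beta response, a pathway known to restrain T cell growth, no gene was past 2-fold in both libraries. Of 7 tested, 6 were below 0 in both (32.5% of all tested genes were). Smad7, its feedback inhibitor, stood at 185 CPM in members of library 2 and 269 CPM in those of library 1, against 305 and 439 CPM, and Pmepa1, another target, at 55.8 and 90.3 CPM, against 119.8 and 209 CPM (log2 ratios -0.98 and -1.13). The exception was the ligand gene Tgfb1, with 328 and 327 CPM, against 259.6 and 302 CPM. In the survival list Bcl2 had 36.7 and 47.4 CPM, against 74.4 and 85.9 CPM, and Bid, which promotes cell death, 71.1 and 72.8 CPM, against 46.5 and 47.4 CPM. None of the 15 tested genes of that list was past 2-fold in both libraries. In both libraries 7 were above 0 and 4 below, with list medians of 0.08 in library 2 and -0.03 in library 1.

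Transcripts of other leukocytes moved with these comparisons and are given as measured. The summed level of the 12 neutrophil markers was 1073 CPM in members of library 2 and 2362 CPM in those of library 1, against 4612 and 6639 CPM in non-dividing cells, and 5 of 7 tested were 2-fold or more lower in members, S100a9 with log2 ratios of -2.66 and -1.62. In members 77.5% and 74.0% of S100a9 UMIs lay in 3 cells of library 2 and library 1. The 15 macrophage markers summed to 2667 and 3491 CPM, against 2530 and 4539 CPM, and the 12 natural killer markers to 1246 and 1488 CPM, against 1506 and 2033 CPM. The defining B cell gene Pax5 was at 0 in both libraries, and the 10 B cell markers summed to 340 and 334 CPM, against 397 and 434 CPM, most of it from Cd37 (311 and 308 CPM in members), which other leukocytes transcribe. Red cell genes summed to 295 and 22.0 CPM in members, against 12.1 and 12.7 CPM, with 3 members of library 2 at 20 or more UMIs. The 14 dendritic cell markers summed to 5488 and 5562 CPM, against 3345 and 5846 CPM. The part of these transcripts in the comparisons was not tested, beyond the fits without called doublets and with 0 C1q UMIs.

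Between the libraries, members differed in few genes that rested on many cells. Of 5709 genes with 20 CPM or more in members of either library, 35 (0.613%) were 2-fold or more higher in library 2 and 31 (0.543%) 2-fold or more lower, against 7 (0.13%) and 16 (0.297%) of 5381 genes in the larger sums of non-dividing cells. In 19 of the 35 and 16 of the 31, at least 50% of the UMIs of the higher library lay in 3 cells. The largest ratios were of that kind. Mcpt2, Cma1 and Cpa3, proteases of mast cells, had 655, 421 and 210 UMIs in members of library 2 and 0 in those of library 1, with 1 cell holding 1284 of these 1286 UMIs. Sparc and Fabp4 had 98.8% and 94.0% of their UMIs of library 2 in 3 cells, and Ccl1, Mcpt8l3 and Mcpt8l2 had 87.7%, 73.0% and 82.8%. On the other side, all 365 UMIs of Gdf15 in library 1 came from 3 cells.

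Fam111a, a protease that acts at replication forks, rested on many cells. It stood at 338 CPM (319 to 358 CPM) in members of library 2 and 48.0 CPM (38.3 to 59.3 CPM) in those of library 1, and was detected in 237 of 349 and 57 of 155 cells. The plain ratio of these CPM values was 7.04 (5.64 to 8.88). In non-dividing cells it stood at 59.2 CPM in library 2 (844 UMIs) and 1.33 CPM in library 1 (14 UMIs), a plain ratio of 44.4 (26.3 to 81.6). On log2(CPM + 10) the ratios were 2.58 in members and 2.61 in non-dividing cells, where the added 10 CPM exceeds the level of non-dividing cells of library 1. Members were higher than non-dividing cells in each library, with plain ratios of 5.70 (5.21 to 6.24) in library 2 and 36.0 (20.3 to 68.6) in library 1.

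Ly49s6, Gzmbl2 and Xcl1 also stood higher in library 2. Ly49s6, a killer cell lectin-like receptor gene with close relatives that may share reads, stood at 209 CPM in members of library 2 and 53.6 CPM in those of library 1 (log2 ratio 1.79, against 0.90 in non-dividing cells). Gzmbl2 had a log2 ratio of 1.38, against 1.00 in non-dividing cells, and the chemokine Xcl1 of 1.36, against 0.69, with 40.1% of its UMIs of library 2 in 3 cells. In the cytotoxic list 1 of 15 was past 2-fold, Xcl1, and 13 were above 0 in library 2 over library 1, while Ctsw had -0.51 and Srgn -0.26. The summed natural killer markers were lower in library 2 (above). By gene, 4 of the 6 tested were above 0 in library 2 over library 1 and 2 below, with a median of 0.19 in members. Of 22 tested genes of the type I interferon response 1 was past 2-fold and 20 were above 0 in library 2 over library 1 (49.2% of all tested genes were), with a median of 0.47 in members and 0.36 in non-dividing cells. Isg15, a ubiquitin-like interferon-induced protein, led with 299.8 and 118.5 CPM (log2 ratio 1.27), and Irf7, an interferon regulator, had 72.0 and 31.6 CPM. Isg15 was detected in 74.5% and 58.1% of members, against 38.9% and 28.6% of non-dividing cells at their lower depth. Without the 3 highest cells of each sum its level was 252 and 102 CPM in members, against 276 and 148 CPM in non-dividing cells. Leaving out 3 cells removes a larger part of the members than of the non-dividing cells, so no order is read from these values.

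**Figure D5:**
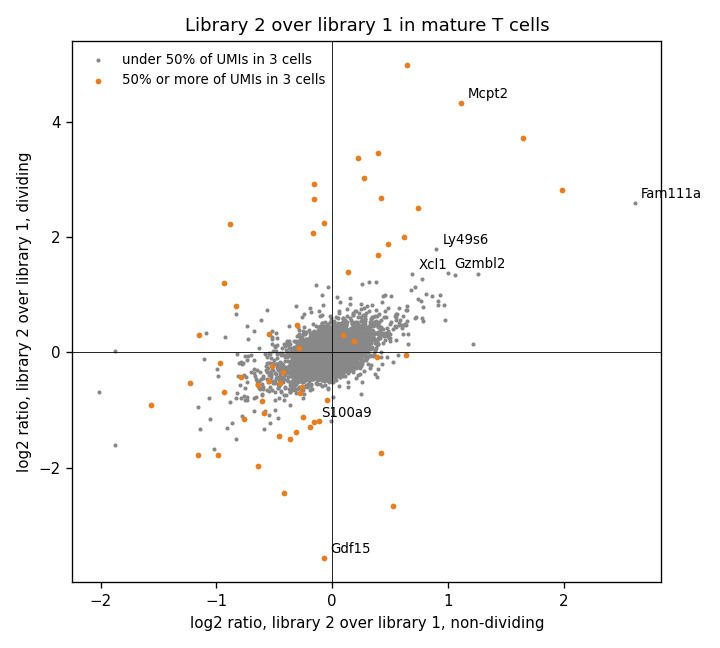
Each point is a gene, with its log2 ratio of library 2 over library 1 in members on the y axis and in non-dividing mature T cells on the x axis, on log2(CPM + 10). Orange genes, with 50% or more of the UMIs of the higher library in 3 members, include Mcpt2 at 4.32 and Gdf15 at -3.55, while Fam111a, spread over many cells, plots at 2.58 and 2.61, the second held down by the added 10 CPM.

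Genes lower in members of library 2 were in part myeloid. S100a8 stood at 164 CPM in library 2 and 483 CPM in library 1, Fcnb at 11.6 and 107 CPM, Fn1 at 17.9 and 99.3 CPM, G0s2 at 47.1 and 185 CPM and Il1rn at 16.2 and 61.5 CPM. In library 1, 3 members held 66.0% of the UMIs of S100a8, 60.0% of Fcnb, 68.8% of Fn1, 50.9% of G0s2 and 52.3% of Il1rn. These are genes of neutrophils, monocytes and macrophages, and the summed neutrophil markers were lower in library 2 in non-dividing cells too (above). Rather evenly spread were Fhl2, a LIM-domain cofactor, at 31.8 and 70.6 CPM in 81 and 74 cells (log2 ratio -0.95, against -1.16 in non-dividing cells), and Cerk, ceramide kinase, at 54.6 and 105 CPM in 122 and 102 cells (-0.83, against -0.50). Genes of the TGF-beta response, none past 2-fold, had a median of -0.46 in members and -0.51 in non-dividing cells, with Smad7 at a log2 ratio of -0.51 in each. The lists of division genes had medians of -0.10 for replication, -0.03 for mitosis and -0.16 for chromatin and spindle building blocks, with none past 2-fold. Below 0 in library 2 over library 1 were 22 of 31, 18 of 35 and 18 of 22 of their genes (50.8% of all tested genes were).

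Dividing T cells outside the rule differed in other ways. In library 2, 120 dividing Cd3e-positive cells carried Rag1, Dntt or Ptcra and none did in library 1. The 120 cells had Stmn1 at 4346 CPM, against 1482 CPM in members of library 2, Tcf7 at 494 CPM, against 28.0 CPM, and Ccl5 at 1400 CPM, against 6647 CPM. Rag2, the partner of Rag1 that the rule did not use, had 34.9 CPM in them and 0 UMIs in members. At 2000 UMIs, 102 of 367 Cd3e-positive cells of library 2 with Rag1, Dntt or Ptcra were dividing (27.8%, 23.3 to 32.7%). Library 1 held only 6 such cells, and 0 of the 6 were dividing (0 to 45.9%), too few for a comparison. Dividing cells with Foxp3 were 6 in library 2 and 2 in library 1, and those with Il17a or Scart1 were 4 and 5, too few for levels.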

How the data were processed

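Values in the deposited matrix are raw UMI counts. Per the file headers, Cell Ranger 4.0.0 produced them, and genome build, annotation and cell calling were not given in the sources used here. Rows of 1 symbol were summed, which left 26976 symbols of 32623 rows and 155309082 UMIs. The matrix pools 1 sample of each group, and libraries are its barcode suffixes. A deposited table of 33756 barcodes shares 111 of them with the matrix under the same suffix and was not used. Members, gene lists and alternatives were chosen with earlier results of these data known.

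Counts were summed per library, divided to CPM and compared on log2(CPM + 10) for genes with 20 CPM or more, without genes of the rule. Called means 2-fold, in both libraries for dividing over non-dividing cells. No test was run, since each group has 1 sample. Intervals are exact Poisson for CPM and exact binomial (Clopper-Pearson) for shares, at 95%, and a share of 0 is limited by 3 counts. Thinning drew 2000 UMIs per cell and left out 13 shallower members of library 2 and none of library 1, against 147 and 62 non-dividing cells. B cells and neutrophils were Cd3e-negative, with 2 or more Cd79b UMIs and Ms4a1, or 2 or more Csf3r and 10 or more S100a9 UMIs. Doublets were called with Scrublet (scanpy 1.11.5, expected share 8%), which marked 6.49% of library 2 and 4.48% of library 1; they were kept and left out as an alternative. Named genes are the 12 highest and 12 lowest of each comparison with at least 50 UMIs and 50 CPM, leading members of each list, and genes of the rule; genes singled out beyond these were chosen after their values were seen. Some genes that the rule names are not reported here. TMM factors came from edgeR 4.0.16 under R 4.3.3. Other steps used Python 3.11.15, numpy 2.4.6, scipy 1.17.1, pandas 2.3.3 and matplotlib 3.10.9. Summing was tested on simulated data.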

Additional observations from a re-analysis of the deposited data

How the results depend on the processing

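No paired analysis was possible because each group has 1 sample, no test was run and no library could be left out. Against 246 genes higher and 38 lower in members, and 35 higher and 31 lower in library 2 over library 1, most alternatives stayed within 1.5 times. Exceptions were 58 lower in members and 57 higher and 50 lower in library 2 with a pseudocount of 1 CPM, 140 higher and 104 lower in library 2 with cells thinned to 2000 UMIs before summing, 19 lower in library 2 without called doublets, and, in an alternative chosen after seeing the data, 11 higher in library 2 without the 2% highest cells of each gene. TMM factors gave 211 higher in members, all among the 246. The share dividing was 7.29% in library 2 and 5.34% in library 1 with 5 division UMIs, 6.80% and 5.05% at 2000 UMIs, 5.50% and 4.04% at 1500 UMIs, and 9.13% and 6.03% at 3000 UMIs. The cause of these shifts was not tested, beyond the lower counts that thinning makes. No median of a list of division or naive genes changed direction. Gdf15, in library 2 over library 1, turned to 0.59 without doublets, 0.40 with 5 division UMIs, 0.25 with 0 C1q UMIs and 0.16 without the 2% highest cells, where Sparc also turned to -0.22 and Fabp4 to -0.46. The macrophage markers' median in members turned from -0.43 to 0.052 at 2000 UMIs and 0.32 without the highest cells, and that of innate lymphoid markers in library 2 over library 1 to 0.10. Gpnmb stood at 0.21 with 0 C1q UMIs and at 0.27 with equal weights of CD8, CD4 and other cells, against -0.92.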

Other observations

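Genes of antigen presentation and interferon gamma signalling showed a mixed picture in members. Psmb9, an immunoproteasome subunit, stood at 681 CPM in members of library 2 and 741 CPM in those of library 1, against 487 and 451 CPM in non-dividing cells, and Gbp4, an interferon-induced GTPase, at 78.1 and 66.0 CPM, against 48.7 and 40.3 CPM. The class I light chain B2m stood at 9246 and 9133 CPM, against 9935 and 9711 CPM, and the class I gene RT1-CE10 at 2249 and 2540.4 CPM, against 2519.9 and 2728 CPM. None of 16 tested genes was past 2-fold in both libraries.

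In the list of immediate early genes 1 of 19 was past 2-fold between the libraries in members, Jun, with 12 above 0 and 7 below in library 2 over library 1 (49.2% of all tested genes were above 0). The median was 0.15 in members and -0.03 in non-dividing cells. Jun stood at 351 CPM in members of library 2 and 154 CPM in those of library 1, against 252 and 259 CPM in non-dividing cells, and at 219 and 111 CPM in members without the 3 highest cells of each library. Fos stood at 980.03 and 628 CPM in members, against 782 and 844 CPM. Fosb, at 873 and 889 CPM, against 861 and 895 CPM, showed no such gap, and the difference between libraries was not tested.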
